A study of Mus musculus with 8 samples.

Results

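The imprinted growth genes Dlk1, Meg3, H19, Igf2, Peg3, Mest, Grb10, Cdkn1c, Peg10 and Plagl1 were described in tumour cells sorted from mouse skin squamous cell carcinoma (SCC), a cancer of keratinocytes. These 10 genes were chosen on measured values of the same arrays, namely that single tumour lineages stood apart, so their levels at the 2 stages are given as a description and carry no test. Of the 10, 7 had a probe set of their own, and those 7 had 21 of the 45141 probe sets, among 17097 genes measured in all. Mest was carried by 1 probe set shared with its neighbour Copg2. H19 and Peg10 were not analysed here, because the probe annotation used named no probe set for them.

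The arrays compared poorly differentiated SCC (PD-SCC, written PD/S-SCC in the sample titles) with well differentiated SCC (WD-SCC). Tumours arose spontaneously or after DMBA-TPA in K14-HPV16 mice, in which a keratin promoter of basal keratinocytes drives papillomavirus genes, and were passed through immunodeficient hosts, labelled nude mice, until WD-SCC became PD-SCC. All 8 samples have the strain label FVB/C57/Bl6, and which lineage began spontaneously is not given in the sources used here. Cells carrying α6-integrin and CD34, which the labels call cancer stem cells, were sorted after depletion of blood and endothelial cells. Of the PD-SCC arrays, 2 were of lineage OT7, 1 of OT14 and 1 of OT15, and the same numbers of WD-SCC arrays came from these 3 lineages. The hosts are mice too, so the probes cannot tell host RNA from tumour RNA. The titles call the arrays biological replicates and do not say if the paired OT7 arrays are of separate tumours. The p-values thus measure only the spread between these arrays, which may be technical in part. In a sorted mixture, fewer cells of a type and less RNA per cell cannot be told apart.

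An imprinted gene is expressed mainly from the copy inherited from 1 parent, and many such genes set the growth of the embryo and placenta. As background, most of them are turned down in many tissues after birth. Paternally expressed genes such as Igf2 and Dlk1 often promote growth, and maternally expressed genes such as Cdkn1c, Grb10 and H19 often restrain it. Neighbouring imprinted genes form clusters that are read from opposite parental copies under 1 control region. In the cluster of Dlk1 and Meg3 on chromosome 12, the paternal copy gives the transmembrane protein Dlk1 and the maternal copy gives the noncoding RNAs Meg3, Rian and Mirg. The arrays do not separate the parental copies, so no value here measures imprinting itself.

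The 3 promoter windows of that cluster are shown because Dlk1 and its noncoding neighbours were high on different arrays. They are taken from RefSeq on build GRCm38.p6 and cover 250 bases before and 50 bases after the start site, 5′ to 3′ on the plus strand. Dlk1 lies at chr12:109452573-109452872, the first Meg3 start at chr12:109540746-109541045 and Rian at chr12:109603695-109603994. Capitals mark the motif matches found by searching both strands.
Dlk1: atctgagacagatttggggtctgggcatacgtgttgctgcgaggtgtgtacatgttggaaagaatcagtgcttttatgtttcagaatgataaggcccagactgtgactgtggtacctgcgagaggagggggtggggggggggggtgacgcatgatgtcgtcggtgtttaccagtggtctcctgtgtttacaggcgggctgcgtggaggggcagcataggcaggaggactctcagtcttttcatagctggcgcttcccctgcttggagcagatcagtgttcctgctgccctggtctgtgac
Meg3: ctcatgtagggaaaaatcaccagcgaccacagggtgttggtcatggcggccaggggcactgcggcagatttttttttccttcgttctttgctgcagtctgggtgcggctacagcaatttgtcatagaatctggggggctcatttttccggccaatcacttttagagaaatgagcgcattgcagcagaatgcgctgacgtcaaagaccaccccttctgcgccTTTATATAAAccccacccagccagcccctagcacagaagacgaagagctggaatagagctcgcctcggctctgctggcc
Rian: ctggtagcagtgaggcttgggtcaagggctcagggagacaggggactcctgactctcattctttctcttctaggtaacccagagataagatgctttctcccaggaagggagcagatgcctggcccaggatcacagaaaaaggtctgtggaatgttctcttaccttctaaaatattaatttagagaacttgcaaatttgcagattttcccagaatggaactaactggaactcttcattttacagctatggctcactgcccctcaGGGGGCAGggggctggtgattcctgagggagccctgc

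The capitals of the Meg3 window hold 2 overlapping matches to the TATA box letters TATAAA, 1 on each strand, with first bases 29 and 25 bases before the start. TATAAA occurred in 13.6% of the 32807 mouse promoter windows of that length. The Rian window held GGGGGCAG, a match to the core letters GGNGGCAG of the insulator protein Ctcf, 13 bases after the start, and 12.6% of windows had such a match. None of the motifs searched was found in the Dlk1 window, which were TATAAA, GGNGGCAG, the Plagl1 letters GGGGCCCC, the YY1 letters AANATGGC and the E-box CACGTG. The Dlk1 window had 9 CpG dinucleotides, the Meg3 window 13 and the Rian window 0, against a median of 7 over all windows. A match in these letters describes the window and does not show that a factor binds there.

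Promoter windows were matched for 7 of the 10 genes. The most CpG-rich of them was the second Grb10 start at chr11:12037371-12037670 on the minus strand, with 45 CpG and 80.0% GC. The Plagl1 window held 26 CpG and the second Igf2 start 24, and 26.5% of all windows held at least 20. The Peg3 window contained 1 match to the Plagl1 letters, which 1.07% of windows contained. The Plagl1 window had 1 E-box, a motif present in 7.15% of windows.

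Meg3 and Igf2 also host microRNAs, which the arrays did not measure as mature molecules. The mature sequences from RefSeq are shown because the host transcripts are among the genes that varied most between lineages. Capitals mark the seed, bases 2 to 8.
miR-770-5p in Meg3: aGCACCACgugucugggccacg
miR-770-3p in Meg3: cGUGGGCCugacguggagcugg
miR-483-5p in Igf2: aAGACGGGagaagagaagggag
miR-483-3p in Igf2: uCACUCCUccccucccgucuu

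No seed was shared among these 4 sequences. The stretch of chromosome 12 from Dlk1 to Mirg holds 57 microRNA hairpins, 54 of them on the plus strand. Of these, 3 lie within Rian and 10 within Mirg.

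All values are log2 expression units unless said otherwise, and a probe's level is compared only with itself on other arrays. Medians per array were 3.66 to 3.77. The highest of 15 bacterial control probe sets without a spike lay between 3.61 and 3.81 on the PD-SCC arrays and between 3.82 and 4.37 on the WD-SCC arrays, and a probe set at or under it is called not above the control. Probe sets for nonspecific binding were also lower in PD-SCC, at 6.66 to 7.08 against 8.002 to 8.53 in WD-SCC for those of the highest GC content. The part of this background in values near the control was not tested. The keratin Krt5, which defines basal keratinocytes, read 3.93 to 4.33 in PD-SCC and 10.53 to 11.62 in WD-SCC. The summed level of 10 keratinocyte markers was 4.87 to 5.59 in PD-SCC and 9.66 to 10.28 in WD-SCC. Of these markers 8 fell by limma's adjusted p, so the later cells carried less of the RNA that defines keratinocytes, though not evenly by lineage. Krt14 read 7.02 and 6.94 for OT7, 4.39 for OT14 and 4.57 for OT15 in PD-SCC, against 10.36 to 11.24 in WD-SCC. Krt6a read 6.94 and 5.22 for OT7 in PD-SCC, and 10.71 to 11.53 in WD-SCC. Its OT14 and OT15 PD-SCC values were not above the control. Sfn ran the other way in PD-SCC, at 4.94 and 4.97 for OT7, 5.36 for OT14 and 5.96 for OT15. Of the sort markers, Itga6 averaged 6.95 ± 0.73 in PD-SCC and 7.25 ± 1.31 in WD-SCC, and Cd34 averaged 7.71 ± 0.84 in PD-SCC and 6.04 ± 1.65 in WD-SCC (SD, n = 4 each). Cd34 read 3.58 on the OT15 WD-SCC array, under its control of 4.37.

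Across the 17097 genes, limma with lineage as a block called 2154 between the stages at an adjusted p under 0.05, which is 12.6% (7.78% higher in PD-SCC and 4.81% lower). The 4 PD-SCC arrays lay entirely above the 4 WD-SCC arrays for 10.8% of genes and entirely below them for 13.3%. Among the 7 imprinted growth genes, Grb10 alone passed that threshold, and it was lower. The 4 PD-SCC values lay entirely below the 4 WD-SCC values for Meg3 and Grb10, and entirely above them for none. The contrast helped to choose the genes, so nothing is read from these counts. What set the 7 genes out was their spread over the arrays: 6 of 7 ranged over at least 2 log2 units, as did 20.1% of all genes, and this spread also helped to choose them. The median range was 3.16 for the 7 genes and 0.92 for all genes. The median stage difference of the 7 was -0.25, and that of all genes was -0.06.

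**Figure D1:**
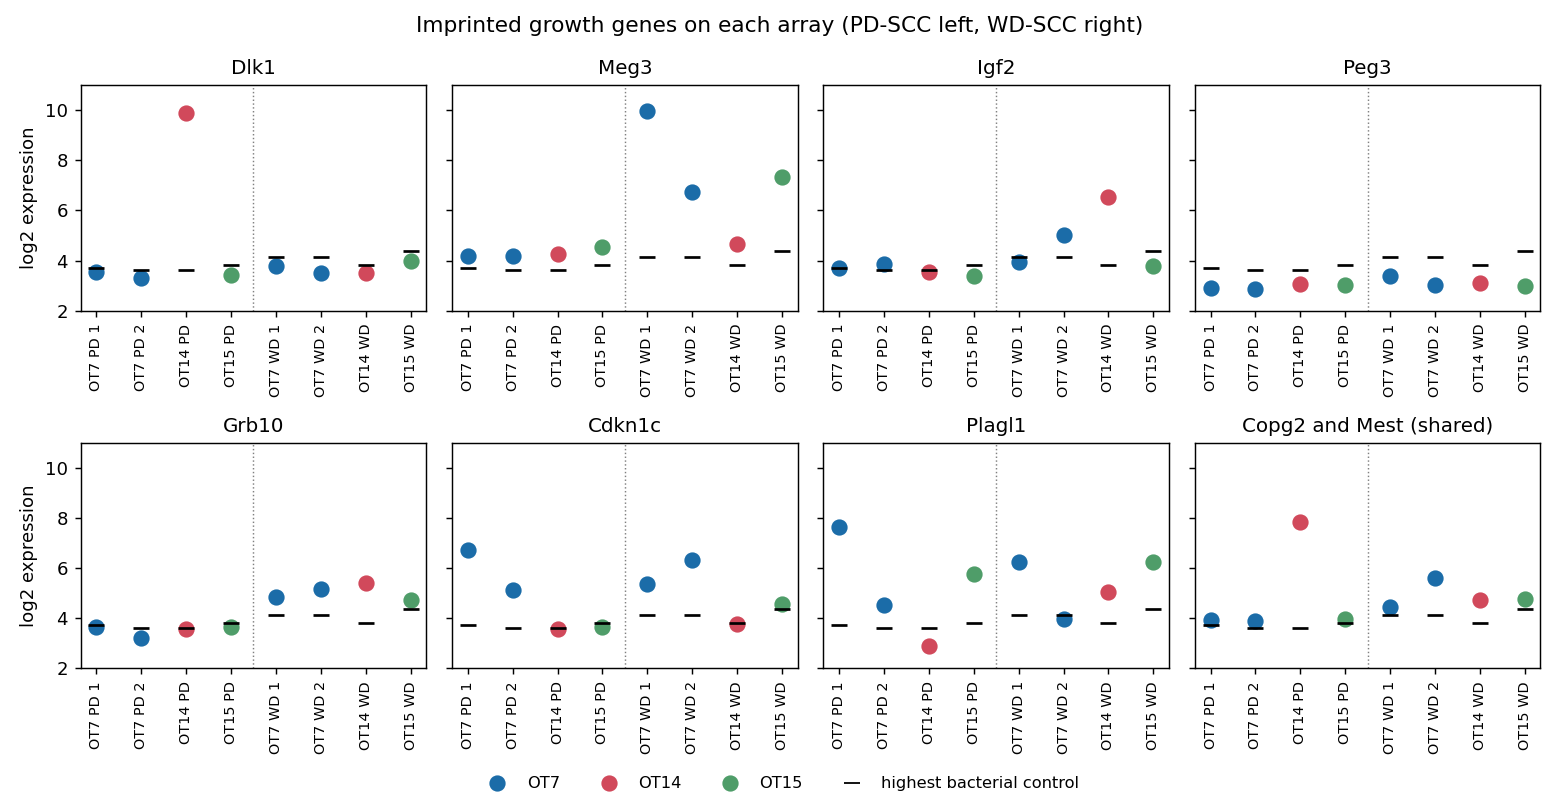
Log2 expression (vertical axis) of 7 imprinted growth genes and of the probe set shared by Copg2 and Mest on each array (horizontal axis), PD-SCC left of the dotted line and WD-SCC right of it. Each point is 1 array, coloured by lineage, and each dash is that array's highest bacterial control; OT7 WD 1 is the array whose title has no number. Dlk1 stands at 9.88 on the OT14 PD-SCC array alone, and Grb10 is at or under the dash on all 4 PD-SCC arrays.

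Dlk1 is a transmembrane protein with EGF repeats, related to the Notch ligands, that holds preadipocytes and other progenitors in an immature state. Its only probe set read 3.56 and 3.33 on the OT7 PD-SCC arrays, 9.88 on the OT14 PD-SCC array and 3.43 on the OT15 PD-SCC array. In WD-SCC it read 3.78 and 3.50 for OT7, 3.52 for OT14 and 3.97 for OT15. Only 1 array of 8 was therefore high, and the other 7 were not above the control. Within OT14 the level was at least 66.3-fold higher in PD-SCC than in WD-SCC, with the WD-SCC array bounded by its control. That value rests on 1 array per stage and has no replicate check.

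In OT7 and OT15 no Dlk1 value was above the control, so no direction was measured in those lineages. The means were 5.05 ± 3.22 in PD-SCC and 3.69 ± 0.22 in WD-SCC (SD, n = 4 each), a difference of 1.36. That difference rests on the OT14 PD-SCC array. Without either OT14 array it was -0.31, which sets readings not above the control against each other. The gap of 5.91 between the OT14 PD-SCC array and the next array was the largest of any gene on any array, as a description of how Dlk1 came to be chosen.

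A few other genes stood alone on the same OT14 PD-SCC array. That array had the highest value for 1596 genes, and 2 of these exceeded the next array by at least 4, Dlk1 and the zinc finger factor Zic2. The genes most like Dlk1 by mean absolute difference over the 8 arrays, after centring, were Zic2 (0.39), the homeobox factor Hoxa9 (0.49) and the forkhead factor Foxn2 (0.65). Zic2 read 7.69, Hoxa9 7.83 and Foxn2 7.08 on that array. On the other 7 arrays Zic2 lay between 2.92 and 3.41, Hoxa9 between 3.37 and 4.16 and Foxn2 between 2.92 and 3.65.

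Markers of other cell types were read beside Dlk1. The summed level of 12 fibroblast and pericyte markers was 8.23 on the OT14 PD-SCC array, 6.81 to 8.02 on the other PD-SCC arrays, and 6.06 to 9.57 in WD-SCC. Of 5 adipocyte and preadipocyte markers measured, 3 were above the control on some array. Their summed level was 5.81 on the OT14 PD-SCC array, 3.96 to 5.54 on the other PD-SCC arrays and 5.53 to 8.39 in WD-SCC. Among them the fatty acid binding protein gene Fabp4 read 5.47 on the OT14 PD-SCC array, 3.19 to 3.65 on the other PD-SCC arrays and 6.51 to 9.45 in WD-SCC. Cebpa was the brightest of the 5 on every array and led their summed level. It read 7.71 on the OT14 PD-SCC array, 5.39 to 7.62 on the other PD-SCC arrays and 6.65 to 9.94 in WD-SCC. Adipoq, which defines adipocytes, was between 2.75 and 3.06 on all arrays. The smooth muscle actin gene Acta2 was 8.47 on the OT14 PD-SCC array, 5.56 to 6.07 on the other PD-SCC arrays and 4.24 to 4.98 in WD-SCC. The part of these cell types in the Dlk1 value was not tested.

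Meg3, the maternally expressed noncoding RNA of the Dlk1 cluster, was high on other arrays. Its brightest probe set read 4.17 and 4.19 for OT7, 4.28 for OT14 and 4.54 for OT15 in PD-SCC. In WD-SCC it read 9.96 on the unnumbered OT7 array, 6.73 on the second OT7 array, 4.66 for OT14 and 7.31 for OT15. The stages did not overlap, although the OT14 WD-SCC array lay just above the PD-SCC arrays. The means were 4.30 ± 0.17 in PD-SCC and 7.17 ± 2.19 in WD-SCC (SD, n = 4 each), a difference of -2.87. Lineage OT7 differed by -4.16, OT14 by -0.38 and OT15 by -2.77. Thus Meg3 differed least in the lineage in which Dlk1 differed most.

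Meg3 was carried by 10 probe sets, of which 6 were above the control on some array. Others differed by -3.22 and -1.84, with the same order of the WD-SCC arrays. Of the rest, 3 differed by -0.42 to -0.77, and the 4 that were nowhere above the control by -0.06 to -0.24. The unnumbered OT7 WD-SCC array was the highest of the 8 arrays on 9 of the 10. Averaged over all probe sets the difference was -1.03, so its size depended on the probe set used.

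Rian, the next noncoding RNA of the cluster and a host of small nucleolar RNAs, followed Meg3. It read 2.98 and 3.04 for OT7, 3.22 for OT14 and 3.25 for OT15 in PD-SCC, against 6.66 and 4.72 for OT7, 3.27 for OT14 and 5.23 for OT15 in WD-SCC. It was not above the control on any PD-SCC array and was above it on 3 WD-SCC arrays. With PD-SCC held at the control its mean was 2.43-fold lower. This is not a strict bound, because the WD-SCC mean includes the OT14 value, which was not above the control. Within lineages Rian was at least 4.05-fold lower in OT7 and 2.67-fold lower in OT15. In OT14 neither stage was above the control, so no fall was measured there. The stage difference of Rian, -1.85 ± 0.61 (SE), did not pass limma's threshold (adjusted p = 0.102). Mirg, the last host RNA of the cluster, was above the control on 1 array, the unnumbered OT7 WD-SCC array at 4.38, and differed by -0.40 (limma adjusted p = 0.246). Against the highest of all 27 bacterial controls, Rian was above on 2 WD-SCC arrays and Mirg on none. The ratio of Rian was then 1.96-fold, which is not a bound, because its WD-SCC mean includes values under those controls.

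**Figure D2:**
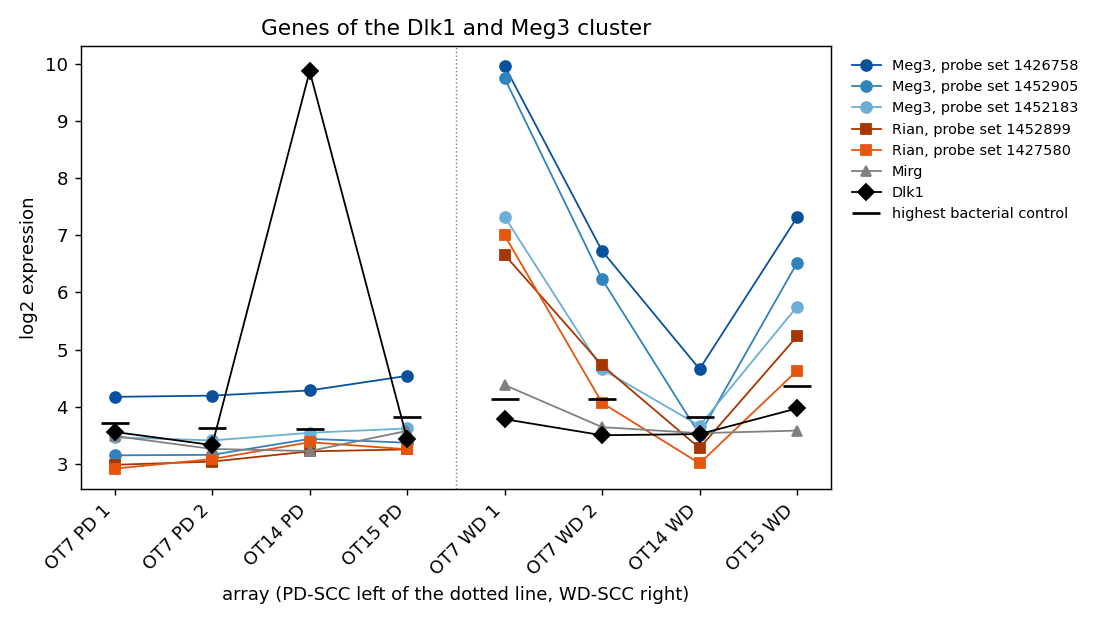
Log2 expression (vertical axis) of Dlk1, 3 probe sets of Meg3, 2 of Rian and 1 of Mirg on the 8 arrays (horizontal axis), PD-SCC left of the dotted line and WD-SCC right of it. Lines join the values of 1 probe set within a stage only to guide the eye, dashes are the highest bacterial control, and OT7 WD 1 is the unnumbered array. Meg3 and Rian peak on the same WD-SCC array, while Dlk1 is high on the OT14 PD-SCC array at 9.88.

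The genes most like Meg3 over the 8 arrays were Lbp, which binds bacterial lipopolysaccharide (mean absolute difference 0.30), the secreted glutathione peroxidase Gpx3 (0.32) and the microfibril protein gene Mfap5 (0.34). Lbp read 3.26 to 3.62 in PD-SCC and 4.14 to 9.35 in WD-SCC, with its highest value on the unnumbered OT7 array. The summed level of the 12 fibroblast and pericyte markers ran the same way within WD-SCC. It was 9.57 on the unnumbered OT7 array, 7.93 on the second OT7 array, 6.06 for OT14 and 8.57 for OT15. In PD-SCC it was 6.81 to 8.23, within the WD-SCC range. Single markers varied: within WD-SCC, Pdgfra, Col1a2, Thy1 and Rgs5 peaked on other arrays, with Rgs5 highest for OT14 (4.46). The other markers peaked on the unnumbered OT7 array, but Dcn, Dpt and Fbln1 were lower for OT15 than for the second OT7 array. Of the 12 markers, Thy1 alone passed limma's threshold, with a difference of -3.92. The receptor gene Pdgfra lay entirely higher in PD-SCC, by 0.66, without passing (limma adjusted p = 0.0813). The matrix genes Col3a1 and Dcn differed by 1.20 and 0.01 and were not called, nor was Lum, which differed by -1.43. The part of fibroblasts in the Meg3 values was not tested.

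Igf2, insulin-like growth factor 2, is a ligand that drives growth through the receptor Igf1r. It read 3.70 and 3.87 for OT7, 3.53 for OT14 and 3.39 for OT15 in PD-SCC, against 3.95 and 5.02 for OT7, 6.55 for OT14 and 3.80 for OT15 in WD-SCC. The OT14 WD-SCC array was the highest, the second OT7 WD-SCC array came next, and the other WD-SCC arrays were not above the control. In PD-SCC only the second OT7 array was above it. Against the highest of all 27 controls the OT14 WD-SCC array alone was above. Within OT14, PD-SCC was at least 7.64-fold lower, from 1 array per stage. The stage difference was -1.21 over all arrays and -0.61 without either OT14 array. A second Igf2 probe set read 3.10 on the OT14 PD-SCC array and 5.30 on the OT14 WD-SCC array, and was not above the control on any other array.

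The genes most like Igf2 were Dlx3, a homeobox factor of the differentiating epidermis (0.20), Elovl4, which makes very long chain fatty acids of the skin barrier (0.27), and Tlcd3a (0.27). Dlx3 read 3.75 on the OT14 PD-SCC array and 6.66 on the OT14 WD-SCC array. Elovl4 read 3.30 on the OT14 PD-SCC array and 6.75 on the OT14 WD-SCC array. The summed level of endothelial markers was also highest on the OT14 WD-SCC array. It was 3.83 to 6.07 in PD-SCC, against 8.04 on that array and 4.59 to 7.73 on the other WD-SCC arrays. Of the single markers, Tie1 was highest for OT15 in WD-SCC (8.30, against 7.98 for OT14). The others were highest on the OT14 WD-SCC array, though Tek was not above the control on any array. The summed level of adipocyte markers was 3.96 to 5.81 in PD-SCC, against 8.39 on the OT14 WD-SCC array and 5.53 to 8.04 on the other WD-SCC arrays. Cebpa, which led that sum, read 9.88 for OT14 and 9.94 for OT15 in WD-SCC. The part of these cells in the Igf2 value was not tested.

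Grb10 is an adaptor protein that binds the insulin and Igf1 receptors and dampens their signal. Its brightest probe set read 3.64 and 3.20 for OT7, 3.59 for OT14 and 3.66 for OT15 in PD-SCC. In WD-SCC it read 4.85 and 5.15 for OT7, 5.40 for OT14 and 4.72 for OT15. The groups were 3.52 ± 0.22 in PD-SCC and 5.03 ± 0.30 in WD-SCC (SD, n = 4 each), and they did not overlap. No PD-SCC array was above the control and every WD-SCC array was, so PD-SCC cells had it at least 2.53-fold lower. The highest of all 27 bacterial controls stood at 5.15 and 5.36 on the OT7 WD-SCC arrays. Against it only the OT14 and OT15 WD-SCC arrays were above. With PD-SCC held at the 27 controls the ratio was 2.04-fold, which is not a bound, because its WD-SCC mean includes the OT7 values under them. The measured difference was -1.51 over all arrays. With PD-SCC held at the 15 controls, it was at least 2.51-fold lower in OT7, 3.44-fold lower in OT14 and 1.88-fold lower in OT15.

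The other Grb10 probe sets differed by -0.75 and -0.63, in the same direction but by less. Each was above the control on 2 WD-SCC arrays only, and the arrays were not the same. The first was highest on the OT15 WD-SCC array (4.71) and the second on the unnumbered OT7 WD-SCC array (4.61). The genes most like Grb10 were the fatty acid elongase gene Elovl1 (0.15), the hyaluronidase gene Hyal1 (0.15) and Tbc1d10b (0.16), a GTPase-activating protein for Rab proteins.

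Cdkn1c, or p57, is an inhibitor of cyclin-dependent kinases that stops the cell cycle. It read 6.72 and 5.11 for OT7, 3.56 for OT14 and 3.67 for OT15 in PD-SCC, against 5.37 and 6.31 for OT7, 3.79 for OT14 and 4.58 for OT15 in WD-SCC. OT7 was therefore the high lineage at both stages, and OT14 was not above the control at either, nor was OT15 in PD-SCC. The stage difference was -0.25, well within the spread of the arrays (PD-SCC SD 1.48 and WD-SCC SD 1.08, n = 4 each). Its nearest gene was the simple epithelial keratin Krt18 (0.37), which read 9.92 and 7.87 for OT7 in PD-SCC and 9.24 and 10.003 for OT7 in WD-SCC.

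Plagl1, also called Zac1, is a zinc finger factor that is known to activate other imprinted genes and to restrain proliferation. It read 7.64 and 4.55 for OT7, 2.90 for OT14 and 5.77 for OT15 in PD-SCC, against 6.23 and 3.98 for OT7, 5.03 for OT14 and 6.23 for OT15 in WD-SCC. The OT14 PD-SCC value and that of the second OT7 WD-SCC array were not above the control. Arrays of the same lineage and stage already differed by 3.09 in OT7 PD-SCC and by 2.25 in OT7 WD-SCC. The stage difference of -0.15 was far smaller than that, and its sign turned when single arrays were left out (0.51 without either OT14 array, 0.24 without the second OT7 PD-SCC array and 0.07 when the unnumbered OT7 WD-SCC array was left out). The probe set is of the x type, whose probes can match transcripts of other genes, and a second probe set was not above the control on any array. No gene tracked Plagl1 closely, the nearest being Cgref1 at a mean absolute difference of 0.80.

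Peg3, a paternally expressed zinc finger gene linked to growth and maternal behaviour, was not above the control on any array. Its brighter probe set read 2.87 to 3.08 in PD-SCC and 2.98 to 3.37 in WD-SCC, so its level could not be measured at either stage. Its listed neighbours Usp29, Zim1 and Zim2 read 3.30 to 3.75 in PD-SCC and 3.36 to 3.91 in WD-SCC.

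Mest, a paternally expressed gene of the alpha/beta hydrolase family, could be read only through the probe set it shares with Copg2, a coat protein subunit that overlaps it. That probe set read 3.93 and 3.90 for OT7, 7.85 for OT14 and 3.99 for OT15 in PD-SCC. In WD-SCC it read 4.43 and 5.62 for OT7, 4.74 for OT14 and 4.77 for OT15. Again the OT14 PD-SCC array stood alone, as for Dlk1, with a difference of 3.11 within OT14, -1.11 in OT7 and -0.78 in OT15. The probe set of Copg2 alone read 5.37 on the OT14 PD-SCC array and 4.81 on the OT14 WD-SCC array, a difference of 0.56. How the shared signal divides between Mest and Copg2 was not tested.

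**Figure D3:**
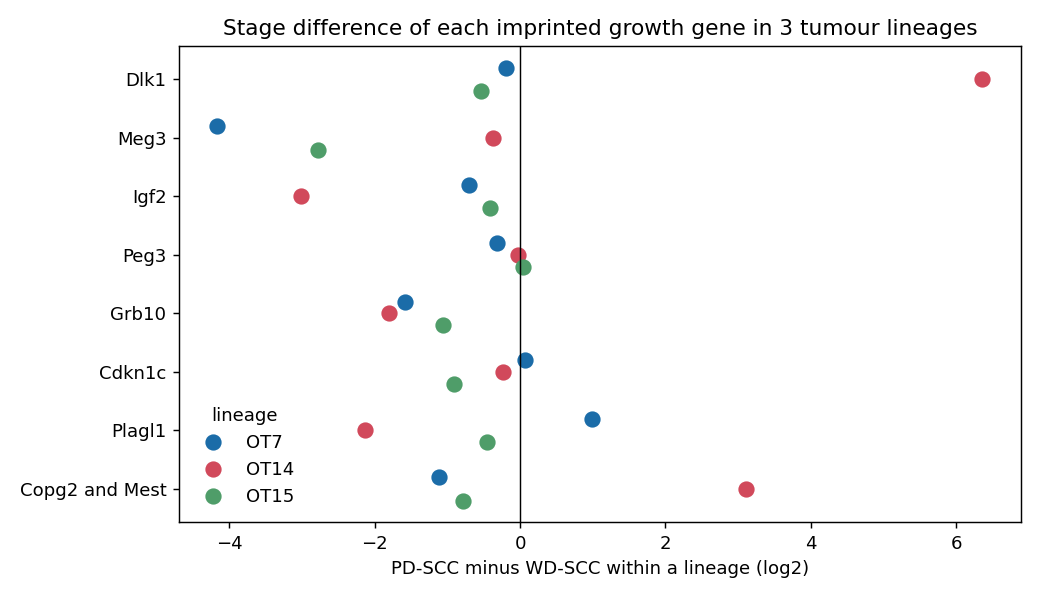
Difference of PD-SCC minus WD-SCC in log2 units (horizontal axis) within each lineage for 7 imprinted growth genes and the probe set shared by Copg2 and Mest (vertical axis). Points of OT7 compare means of 2 arrays per stage, and those of OT14 and OT15 compare single arrays. Dlk1 in OT14 lies at 6.36, Meg3 in OT7 at -4.16, and the 3 points of Grb10 lie between -1.81 and -1.06, with PD-SCC not above the control. Both stages were not above the control for Dlk1 in OT7 and OT15, Igf2 in OT15, Cdkn1c in OT14 and Peg3 in every lineage.

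Imprinted genes outside the 10 were read from a list of 66, of which 50 were measured and 35 were above the control on some array. In all, 1 rose and 4 fell in PD-SCC by limma's adjusted p, or 10% against 12.6% of all genes, and the median difference was -0.11 against -0.06. Among genes averaging at least 5 in the brighter stage (the filter on dim genes) 3 of 18 were called, or 16.7% against 34.3% of all genes that passed it. Slc38a4, a paternally expressed amino acid transporter of placenta and liver, fell most. It read 3.47 and 3.33 for OT7, 6.53 for OT14 and 3.11 for OT15 in PD-SCC, against 7.02 and 7.42 for OT7, 8.97 for OT14 and 9.18 for OT15 in WD-SCC. The change was -4.04 ± 0.55 (SE; limma adjusted p = 0.0118) and had 1 sign in all lineages, and it passed the threshold with each array left out in turn. It did not pass with the OT7 arrays averaged or without lineage OT7, where limma's adjusted p was up to 0.166. Averaged over all its probe sets Slc38a4 differed by -2.22, and it was still called (limma adjusted p = 0.0091).

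The paraoxonase Pon2, a neighbour of Peg10, rose by 1.19 (limma adjusted p = 0.0376). The transporter Slc22a18, a neighbour of Cdkn1c, fell by 0.77 (limma adjusted p = 0.0395), and the insulin gene Ins2 next to Igf2 fell by 0.61 (limma adjusted p = 0.0432). Snrpn, a splicing protein gene of another cluster, fell by 0.64 (limma adjusted p = 0.0472). These 4 calls depended on single arrays: Slc22a18 lost its call without any 1 of the 8 arrays, Ins2 and Snrpn without any of 7 and Pon2 without any of 6, with adjusted p up to 0.129. Ins2 kept its call only without the unnumbered OT7 WD-SCC array, as did Snrpn, and Pon2 kept its call only without an OT14 array. The call of Snrpn was also lost with lineage as a random block (limma adjusted p = 0.0509), with no block (limma adjusted p = 0.0531) and once dim genes were filtered out (limma adjusted p = 0.0721), and that of Ins2 with no block (limma adjusted p = 0.0526). Pon2 was not called after cyclic loess (limma adjusted p = 0.0574), and its difference was 0.48 over all its probe sets. Ins2 read close to the controls, at 3.75 to 4.01 in PD-SCC and 4.18 to 4.96 in WD-SCC. Both its OT7 WD-SCC values lay under the highest of all 27 controls (5.15 and 5.36). Slc22a18 read 3.49 to 3.79 in PD-SCC, with 1 array above the 15 controls, and 4.04 to 4.91 in WD-SCC. On every array it lay under the highest of all 27 controls. The part of background in the Ins2 and Slc22a18 differences was not tested. The probe sets of Ins2 and Snrpn are of the x type, and a second Snrpn probe set of another type differed by -0.89.

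Within clusters the differences ran in both directions. Sgce, which shares its control region with Peg10, read 6.04 and 6.96 for OT7, 3.34 for OT14 and 6.85 for OT15 in PD-SCC, against 5.08 and 4.18 for OT7, 3.94 for OT14 and 4.21 for OT15 in WD-SCC. It was higher in PD-SCC in OT7 and OT15 and lower in OT14, and the difference of 1.44 did not pass (limma adjusted p = 0.154). Phlda2, a growth restraint of the placenta near Cdkn1c, differed by -1.11 (limma adjusted p = 0.106), and the antisense RNA Kcnq1ot1 of that cluster by -0.90 (limma adjusted p = 0.249). Tnfrsf23, a decoy receptor gene at the edge of the same region, differed by -2.53 (limma adjusted p = 0.0721). Nap1l4 and Cd81 were expressed at both stages with differences of 0.52 and 0.05.

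Partners of these genes in growth signalling were read from a list of 44, of which 35 were measured. In PD-SCC 4 rose and 2 fell by limma's adjusted p, or 17.1% against 12.6% of all genes. With the filter on dim genes 10 of 24 were called, or 41.7% against 34.3%. Grb7, an adaptor of the same family as Grb10, fell by 4.46, at 3.49 to 3.87 in PD-SCC and 6.81 to 9.24 in WD-SCC (limma adjusted p = 0.00626). Nedd4, the ubiquitin ligase that binds Grb10, rose by 1.38 ± 0.13 (SE), with 11.07 ± 0.13 in PD-SCC and 9.69 ± 0.24 in WD-SCC (SD, n = 4 each; limma adjusted p = 0.00536). Both calls held with each array left out in turn, and that of Nedd4 was lost with the OT7 arrays averaged or without lineage OT7 (limma adjusted p up to 0.102). Plagl2, a zinc finger factor related to Plagl1, rose by 0.77 (limma adjusted p = 0.0345).

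The binding proteins of Igf ligands moved in both directions. Igfbp4 rose by 2.56 ± 0.35 (SE), at 10.98 to 12.04 in PD-SCC and 8.12 to 9.66 in WD-SCC (limma adjusted p = 0.0116), and held with each array left out. Igfbp6, which prefers Igf2, rose by 2.44, at 6.35 to 7.62 in PD-SCC and 3.25 to 6.66 in WD-SCC (limma adjusted p = 0.0468). Igfbp3 fell by 3.51 (limma adjusted p = 0.0289), but the OT14 PD-SCC array stayed at 8.11 while the other PD-SCC arrays read 3.58 to 4.23, against 7.35 to 9.40 in WD-SCC. Without 1 array the calls of Plagl2 and Igfbp6 were lost in 7 of 8 cases, all but that of the unnumbered OT7 WD-SCC array, and that of Igfbp3 in 6 of 8, all but those of the OT14 arrays, with adjusted p up to 0.122. All 3 calls were also lost with lineage as a random block, at limma adjusted p of 0.0867 for Plagl2, 0.0581 for Igfbp6 and 0.0593 for Igfbp3, and with no block. Cyclic loess ended the calls of Plagl2 (limma adjusted p = 0.211) and Igfbp6 (limma adjusted p = 0.0807), and scaling to the 75th percentile that of Plagl2 (limma adjusted p = 0.0749). The receptor Igf1r differed by 1.09 (limma adjusted p = 0.0641). The ligand Igf1 read 3.99 to 4.43 in PD-SCC, against 8.63 on the unnumbered OT7 WD-SCC array and 4.48 to 5.18 on the other WD-SCC arrays.

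Regulators of imprints were read from a list of 26, of which 23 were measured. In PD-SCC 6 rose and 1 fell by limma's adjusted p, or 30.4% against 12.6% of all genes, and the median difference was 0.32 against -0.06. With the filter on dim genes 9 of 18 were called, or 50% against 34.3%, and the median difference was 0.65 against 0.34. The histone methyltransferase Setdb1 rose by 2.02 ± 0.30 (SE), at 5.69 to 7.35 in PD-SCC and 3.97 to 4.77 in WD-SCC (limma adjusted p = 0.0142). The Polycomb enzyme Ezh2 rose by 2.17 (limma adjusted p = 0.0252), and the maintenance DNA methyltransferase Dnmt1 rose by 2.24, at 7.51 to 8.03 in PD-SCC and 4.04 to 6.47 in WD-SCC (limma adjusted p = 0.0323). The insulator protein Ctcf rose by 1.45, at 8.57 to 9.15 in PD-SCC and 6.14 to 7.78 in WD-SCC (limma adjusted p = 0.0315). Averaged over all probe sets, Ctcf differed by 0.87 and Setdb1 by 1.56, and both were still called.

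The chromatin protein Smchd1 rose by 0.93 (limma adjusted p = 0.0320) and the histone methyltransferase Ehmt1 rose by 0.79 (limma adjusted p = 0.0490). Tet3, which oxidises methylated cytosine, fell by 1.05 ± 0.13 (SE), at 6.23 to 6.71 in PD-SCC and 7.46 to 7.65 in WD-SCC (limma adjusted p = 0.0101). Tet3 kept its call with each array left out and lost it without lineage OT7 (limma adjusted p = 0.0943), and Setdb1 lost it without the first OT7 PD-SCC array (adjusted p = 0.0536 by limma), with the OT7 arrays averaged (limma adjusted p = 0.0929) and without lineage OT7 (limma adjusted p = 0.108). The call was lost by Ezh2 and Dnmt1 in 5 of 8 such fits, by Ctcf in 4, by Smchd1 in 7 and by Ehmt1 in 8, with limma adjusted p up to 0.121. After cyclic loess scaling Ctcf, Dnmt1 and Ehmt1 were not called, at limma adjusted p of 0.07, 0.063 and 0.243. Ehmt1 also lost its call after scaling to the 75th percentile (limma adjusted p = 0.113), with a random block (limma adjusted p = 0.0604) and with no block (limma adjusted p = 0.0631). The de novo enzymes Dnmt3a and Dnmt3b differed by 0.10 and -0.30 and were not called, and Dnmt3b was not above the control on any array.

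**Figure D4:**
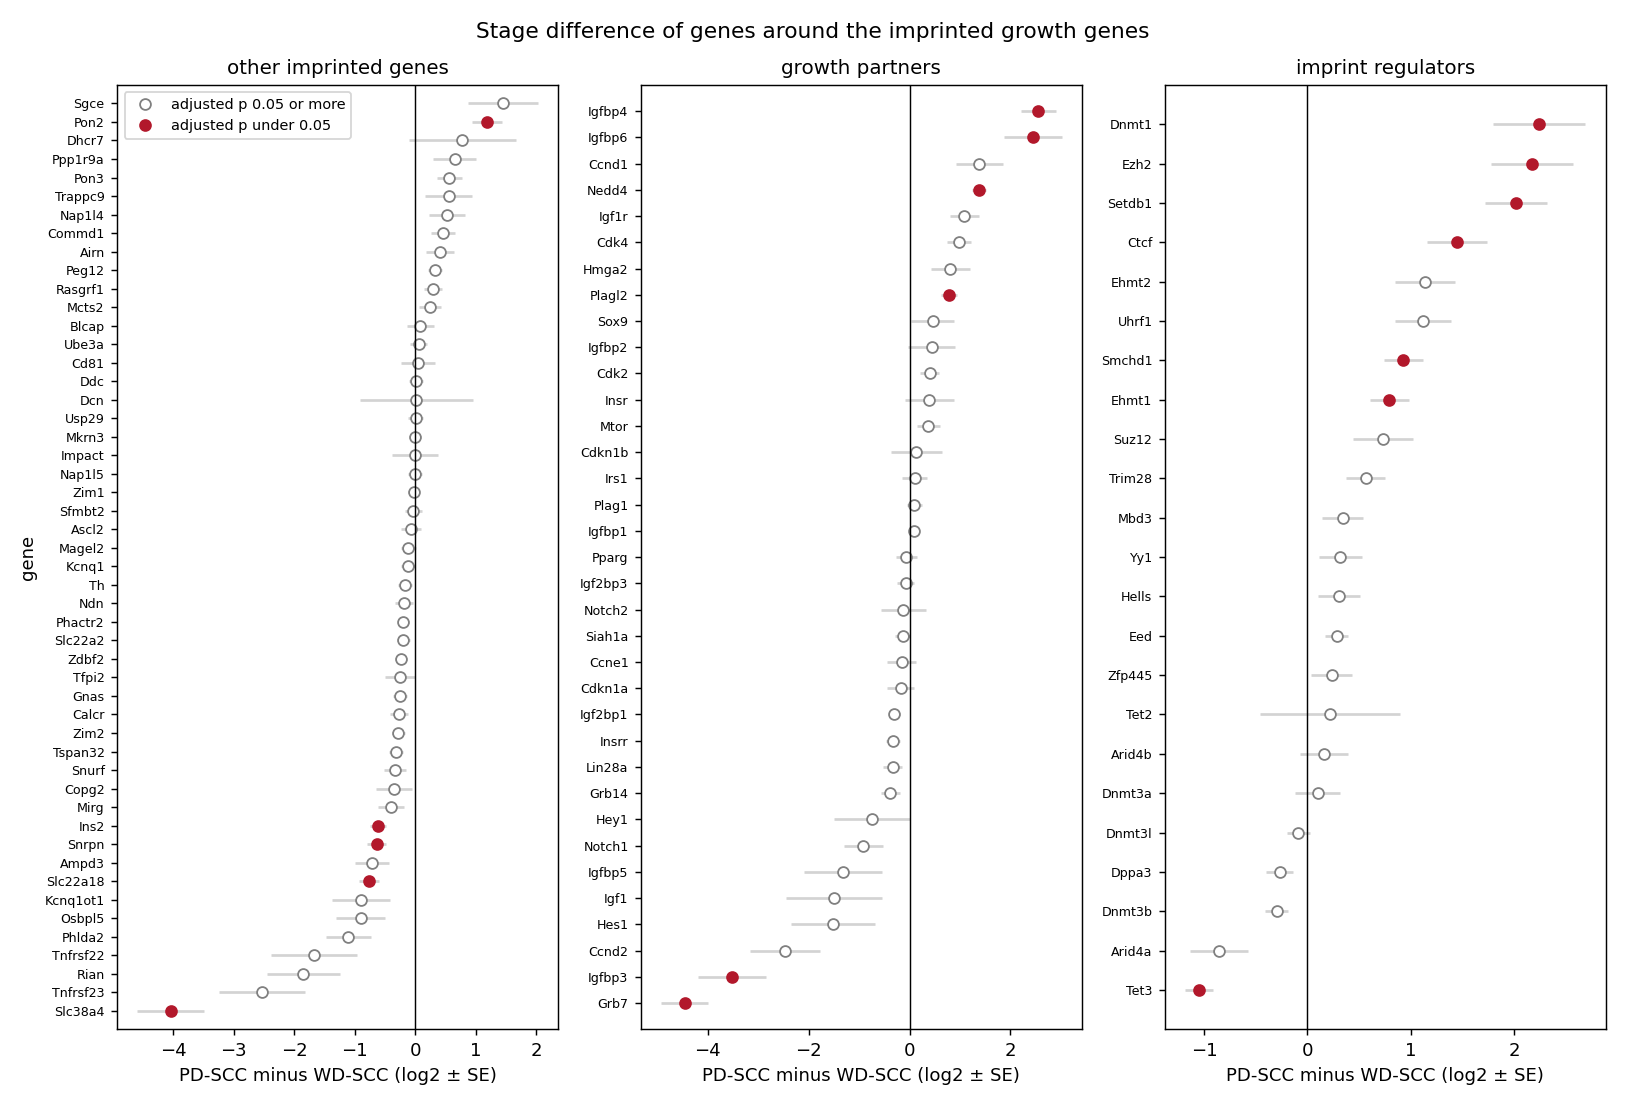
Stage difference, PD-SCC minus WD-SCC in log2 units with its SE (horizontal axis), for each measured gene (vertical axis) of 3 lists around the imprinted growth genes. Filled points have a limma adjusted p under 0.05: 5 of 50 other imprinted genes, 6 of 35 growth partners and 7 of 23 imprint regulators.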

How the data were processed

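Gene expression was measured on 8 Affymetrix arrays, 4 of PD-SCC and 4 of WD-SCC. The deposited values are log2 expression per probe set, made by the authors with affy and RMA per the submitters' processing notes, with versions and chip definition not given. RMA corrects background, normalises quantiles and summarises probes, so levels near the bacterial controls are bounds. The number of arrays limits the precision.

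Gene symbols came from the platform annotation, updated through RefSeq (99.1% of genes matched). Of a gene's probe sets, the one brightest on average over the arrays was used. Stages were compared with limma 3.58.1 in R 4.3.3 (lmFit and eBayes, two-sided, Benjamini-Hochberg over 17097 genes, threshold 0.05) with lineage as a fixed block. A bound of "at least" sets the brighter stage's mean against the dimmer stage's mean of, per array, the higher of the probe and the highest of 15 unspiked controls. A marker list's summed level is log2 of its mean linear level.

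Genes named were all 10 imprinted growth genes, the called genes of 3 lists (at most 5 per direction by p), listed cluster neighbours, the 3 genes nearest each gene ranging over 2 log2 units (highest array at least 6) and the sort markers. Other genes, such as cell type markers, Acta2, Igf1, Igf1r, Ehmt1 as the last of 6 risers, Dnmt3a, Dnmt3b, Tnfrsf22, Tnfrsf23 and Ccnd2, were named with their values seen. The genes and lists were chosen with earlier results of these data known. Alternatives were no block, a random block, averaged OT7 arrays, a filter on dim genes (mean of at least 5), the mean of all probe sets, 2 other scalings, and leaving out each array or lineage OT7. In a test on simulated data for the 17097 genes, the fit recovered 46% of changes of 1 and 82% of changes of 2 log2 units, with 12 false calls among 140.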

Additional observations from a re-analysis of the deposited data

Results flagged for a closer look

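Dlk1 read 9.88 on the OT14 PD-SCC array, far from the other 3 PD-SCC arrays (3.33 to 3.56). Its stage difference read 6.36 in OT14 and -0.54 in OT15, but both OT15 values and the OT14 WD-SCC value were not above the control, so no direction was measured in OT15, and the difference between these lineages was not tested. The probe set shared by Copg2 and Mest read 7.85 on the OT14 PD-SCC array, against 3.90 to 3.99 on the other PD-SCC arrays. Its stage difference was 3.11 in OT14, and -1.11 in OT7 and -0.78 in OT15, and the difference between these lineages was also not tested. Grb10 read 3.20 on the second OT7 PD-SCC array, below the other 3 PD-SCC arrays (3.59 to 3.66), all of them not above the control. These single arrays were marked by Dixon's ratio, the gap to the nearest array divided by the range of the group. With groups of 4 samples chosen without sight of their values, chance alone marks about 1 in 20 groups in this way. These genes were chosen on measured values of the same arrays, so that rate does not apply to them and the marks carry no test.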

How the results depend on the processing

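The count of genes called between stages was 2154, and 401 with the OT7 arrays averaged per stage, 246 without lineage OT7 and 886 to 1689 with 1 array left out. The other imprinted genes called were 5, and 3 with no lineage block, 0 with averaged OT7 arrays, 3 with the filter on dim genes, 0 without lineage OT7 and 1 to 3 with 1 array left out. At an unadjusted limma p under 0.05 these counts of 0 were 7 of 50 with averaged OT7 arrays and 6 of 50 without OT7. Over all 17097 genes the same cut held 3983 with averaged OT7 arrays and 3702 without OT7. Nothing is read from these list counts. The growth partners called were 6, and 2 with averaged OT7 arrays, 10 with the filter, 2 without lineage OT7 and 3 to 6 with 1 array left out. The imprint regulators called were 7, and 1 with averaged OT7 arrays, 0 without lineage OT7 and 2 to 5 with 1 array left out. Without lineage OT7, 12 of 23 had an unadjusted limma p under 0.05, as did 3702 of all 17097 genes. Averaging and leaving out arrays reduce the samples in the fit. The imprinted growth genes whose stages did not overlap were 2, and 4 without lineage OT7, where each stage has 2 arrays. Stages separate more easily with so few arrays, and the share of all genes in that setting is not given. Nothing is therefore read from the count of 4. Of the calls, 1331 were higher in PD-SCC and 823 lower, while 799 were higher and 930 lower after cyclic loess. After scaling to the 75th percentile 1150 were higher and 1205 lower. That scaling moved the median difference of all genes to -0.21 from -0.06, and no called gene of the 3 lists changed sign under any alternative. Of 131 alternative values for single growth genes, 117 stayed within 1 SD and 14 moved further, all 14 of them values of Meg3, Peg3 or Grb10. In all, 8 had the other sign, among them Dlk1 (-0.31 without either OT14 array, from values not above the control), Peg3 (0.0014 without OT7), Cdkn1c (0.0098 without the second OT7 PD-SCC array) and Plagl1. Those of Dlk1 and Plagl1 still counted as within 1 SD. The SD is wide in genes chosen for their spread, so staying within it does not show stability. Lineage paired the stages as the block, and averaging the OT7 arrays left 3 pairs, with the 401 genes given above. Signal close to the bacterial controls limits Dlk1, Igf2, Peg3 and Grb10, whose dim values are bounds, and also some values of Cdkn1c and Plagl1.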

Other observations

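Some genes of the lists kept a high level on the OT14 PD-SCC array while it was low on the other PD-SCC arrays, and they were picked with these values in view. The D-type cyclin gene Ccnd2 read 7.40 on the OT14 PD-SCC array, 3.66 to 3.82 on the other PD-SCC arrays and 6.43 to 7.81 in WD-SCC. The imprinted transporter gene Slc38a4 read 6.53 on the OT14 PD-SCC array, 3.11 to 3.47 on the other PD-SCC arrays and 7.02 to 9.18 in WD-SCC. The binding protein gene Igfbp3 read 8.11 on that array, 3.58 to 4.23 on the other PD-SCC arrays and 7.35 to 9.40 in WD-SCC.

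The imprinted decoy receptor gene Tnfrsf22 differed by lineage within PD-SCC. It read 4.99 and 5.48 for OT7, 7.50 for OT14 and 8.72 for OT15 in PD-SCC, and 7.65 to 8.82 in WD-SCC. Its neighbour Tnfrsf23 ran in the same order within PD-SCC, at 3.79 and 3.99 for OT7, 5.34 for OT14 and 6.81 for OT15, against 5.80 to 8.41 in WD-SCC.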
